A study of Mus musculus with 20 samples.

Results

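The smooth muscle contractile genes described here are Acta2, Actg2, Tpm2, Tagln, Cnn1, Myh11, Myl9, Mylk and Des, chosen by name as 9 of the 45705 genes in the deposited expression table. These genes serve smooth muscle contraction, that of arterioles included, but some of them, such as Des, Tpm2 and Mylk, are also made by other cells. The levels of the 9 were set against those of 12 capillary pericyte genes, above all in the GRP2/MP3 population. All 9 were found in the table, and 7 of them passed the filter on low values and were tested, while Myh11 and Actg2 did not. On the log2 scale, Myl9, Acta2, Mylk and Tpm2 had higher mean levels in GRP2/MP3 than in BNAP/GRP1, GRP3 and PFMP, Acta2 and Tagln had their highest mean level in NSC, and Myh11 and Cnn1, which mark mature smooth muscle, lay under 2 RPKM in 19 of the 20 libraries. Of the 7 tested members, 0 differed at an adjusted p under 0.05 in the 7 comparisons made. These were GRP2/MP3 against each other population, and BNAP/GRP1, GRP3 and PFMP against NSC. In this fit, which had no batch term, 0% of all tested genes were called higher in every GRP2/MP3 comparison. Its lack of calls of higher genes is therefore not particular to the members. Without batch 3 and with the batch as a term, 0 of 7 members were called in the GRP2/MP3 comparisons. There 0.503%, 0.00724%, 0.167% and 0.105% of all genes were called higher against NSC, BNAP/GRP1, GRP3 and PFMP.

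The data were RNA-seq of cells sorted from the periventricular zone of Swiss Webster mouse pups at postnatal day 5, with the pups of a litter, males and females, pooled. Cells were gated on CD140a (PDGFRα), NG2 (the product of Cspg4), CD133 (prominin 1) and CD15 (LeX). NSC, the neural stem cells, were CD140a- NG2- CD133+ CD15+. BNAP/GRP1 were CD140a- NG2+ CD133- CD15+, and GRP2/MP3 were CD140a- NG2+ CD133- CD15-. GRP3 were CD140a+ NG2+ CD133- CD15-, and PFMP were CD140a+ NG2+ CD133- CD15+. The labels name GRP2/MP3, like the other NG2+ gates, as neural progenitors, and the antibodies named in the methods include none that removes vascular cells. Each population had 4 libraries, 1 in each of 4 batches (NSC 3 stands for the NSC library of batch 3). The labels name no transgene and no treatment. All values are RPKM, which corrects the reads of a gene for its length and for the size of the library. The lengths used are not given, and the polyA RNA was amplified before sequencing. Whether long and short genes were covered alike was not tested, so comparing different genes within a library is approximate. This limit applies to the ranking of the members and to the sums and means over lists.

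Smooth muscle cells shorten when myosin filaments pull on actin filaments anchored in the cell. A rise in calcium activates myosin light chain kinase, which phosphorylates the regulatory light chain of myosin, and a phosphatase reverses the step. In the brain, arterioles are wrapped by such cells, whereas capillaries carry pericytes, which share a lineage and many genes with smooth muscle, NG2 among them, but hold less of the contractile proteins. Transcription of many contractile genes is driven by serum response factor and its partner myocardin through the CArG box, a short A- and T-rich motif.

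Several libraries stood apart from the rest. In the 5 libraries of batch 3 the members had narrow ranges: across them the range of a member on the log2(RPKM + 1) scale was 0.05 to 1.45, against 2.34 to 5.29 across the other 15 libraries. Scgb1a1, a secretory protein of lung airways, stood at 839 to 965 RPKM in all 5 and at 13.6 or less in the other 15. BNAP/GRP1 4 had the lowest relative depth of the 20 libraries, 0.0395 of that of BNAP/GRP1 1, and a median over all genes of 8.30 RPKM. The medians of GRP3 4, NSC 4 and GRP2/MP3 4 were 2.02, 1.61 and 0.977, and those of the other 16 libraries were 0.237 or less. Depths relative to BNAP/GRP1 1 ran up to 1.41, and since the table gives no read totals, counting intervals could not be set and a listed 0 does not show absence. In these bulk samples, fewer cells of a type and less RNA per cell cannot be told apart.

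The promoter windows were examined for the CArG box because Acta2 and Myl9, the members with the highest level in most libraries, are known to be driven through it. RefSeq windows of 300 bases around the gene start (GRCm38.p6) were found for 6 of the 9 members: Acta2, Cnn1, Myl9, Des, Tpm2 and Mylk. A complete CArG box, with CC at one end, GG at the other and only A or T between them, on either strand, was in the window of 1 of the 6, Myl9, and in 1.63% of all 32851 windows. With 1 C or G allowed among the middle bases, a form added after the windows were read, it was in 2 of the 6, Acta2 and Myl9, and in 9.98% of all windows. TATAAA, on either strand, was in 0 of the 6 and in 13.6% of all windows. No match says only that these letters are not in these windows. The stretches that hold the matches are given below 5′ to 3′ on the strand of the gene, with the matches in capitals. The first base of the Acta2 matches lies at -84 and -34 from the RefSeq start, and both stretches lie in exon 1 of the GENCODE vM21 annotation. The Myl9 stretch ends just before its first annotated exon, holds matches that begin at -161 (complete) and -99 (with 1 G) and has a GC content of 71.4%.
Acta2, chr19:34255438-34255467, minus strand: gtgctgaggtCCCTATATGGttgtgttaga
Acta2, chr19:34255388-34255417, minus strand: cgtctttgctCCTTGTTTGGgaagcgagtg
Myl9, chr2:156775214-156775419, plus strand: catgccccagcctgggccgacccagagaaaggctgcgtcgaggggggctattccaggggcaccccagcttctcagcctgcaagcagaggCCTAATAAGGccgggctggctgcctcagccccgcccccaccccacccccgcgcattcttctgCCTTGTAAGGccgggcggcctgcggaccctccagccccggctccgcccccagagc

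Acta2 (chr19:34241090-34255590, minus strand) encodes smooth muscle α-actin, the main actin of the thin filament in vascular smooth muscle. It was listed at 9.33, 1.58, 4.84 and 22.6 RPKM in GRP2/MP3 1 to 4, and at 14.03, 27.8, 5.13 and 0.869 RPKM in NSC 1 to 4. BNAP/GRP1 1 to 4 held 0.209, 0.890, 4.72 and 5.29 RPKM, GRP3 held 0.708, 0.448, 4.72 and 0.864, and PFMP held 0.306, 0.140, 2.86 and 0.0219. GRP2/MP3 and NSC therefore held the 4 highest values, 2 each, but the order of these populations turned over between batches 2 and 4, and the ranges of all 5 populations overlapped pairwise. On the log2(RPKM + 1) scale the means were 3.07 ± 1.71 (SD, n = 4) in NSC, 2.96 ± 1.35 in GRP2/MP3, 1.59 ± 1.18 in BNAP/GRP1 and 1.18 ± 0.90 in GRP3, with PFMP lowest at 0.64 ± 0.89, and of the neighbours in that order GRP2/MP3 and BNAP/GRP1 alone differed by more than either SD, by 1.37. In GRP2/MP3 4, 7.94% of all genes had a higher RPKM than Acta2.

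Actg2 (chr6:83512905-83536265, minus strand), the enteric and visceral smooth muscle γ-actin, stayed low nearly throughout. Its values were 1.02, 0.0543, 0.0155 and 4.91 RPKM in GRP2/MP3 and 0.0639, 0.950, 0.0610 and 7.06 in BNAP/GRP1. In the other 12 libraries, those of NSC, GRP3 and PFMP, it ranged from 0 to 0.806. Of the 20 libraries, GRP2/MP3 1, GRP2/MP3 4 and BNAP/GRP1 4 were thus the ones above 1 RPKM, which is fewer than the filter asked for, and Actg2 was not tested. In BNAP/GRP1 4, 58.3% of all genes had a higher RPKM than Actg2.

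Tpm2 (chr4:43514711-43523765, minus strand) encodes β-tropomyosin, which lies along the actin filament and is also made by skeletal muscle. It was the steadiest of the 3 members at 1 RPKM or more in all 4 GRP2/MP3 libraries, at 9.16, 5.25, 2.41 and 7.71 RPKM in batches 1 to 4. NSC held 1.72, 1.81, 2.32 and 3.03, GRP3 3.10, 1.84, 1.34 and 4.99, and PFMP 1.56, 0.595, 1.06 and 0.883. BNAP/GRP1 ranged widely, with 4.98, 2.76, 0.244 and 17.4. All 4 GRP2/MP3 values lay above all 4 PFMP values, and GRP2/MP3 overlapped with NSC, GRP3 and BNAP/GRP1. The mean on the log2 scale was highest in GRP2/MP3, 2.72 ± 0.70 (SD, n = 4), and lowest in PFMP, 1.00 ± 0.29.

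Tagln (chr9:45929619-45936058, minus strand) encodes transgelin (SM22α), an actin-binding protein that appears early in smooth muscle. In NSC 1 to 4 it was listed at 3.68, 13.6, 3.73 and 2.10 RPKM, against 1.51, 0.495, 3.06 and 7.99 in GRP2/MP3. BNAP/GRP1 had 0.355, 0.437, 4.01 and 7.11, GRP3 0.232, 0.171, 5.89 and 1.56, and PFMP 0.351, 2.32, 4.13 and 0.872. NSC 2 was the highest of the 20 libraries, GRP2/MP3 was above the other progenitors only in batches 1 and 4, and all populations overlapped. Tagln's transcripts lie opposite Pcsk7 and Gm48529, and 53.3% of their 75-base windows are shared with these genes, so reads could be assigned to either where strand was not used, and the sources used here do not state whether it was. Pcsk7 ranged from 0.397 to 6.17 RPKM, and Gm48529 was not analysed here.

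Cnn1 (chr9:22099216-22109630, plus strand), calponin 1, binds actin and damps the myosin ATPase in differentiated smooth muscle. It stood at 0.239, 0.0669, 0.0953 and 1.12 RPKM in GRP2/MP3 and at 0.0989, 0.598, 0 and 9.10 in BNAP/GRP1. The 12 libraries of NSC, GRP3 and PFMP ran from 0 to 1.34. Cnn1 passed 1 RPKM in 4 libraries, NSC 4, BNAP/GRP1 4, GRP2/MP3 4 and GRP3 4, all of batch 4, and met the filter through these alone. They were the libraries with the highest medians over all genes. In them 57.6%, 45.1%, 46.3% and 66.8% of all genes, in that order, were higher than Cnn1. The mean of Cnn1 in GRP2/MP3, 0.379 ± 0.497 RPKM (SD, n = 4), was below that in NSC, 0.595 ± 0.568, which includes 1.32 RPKM in NSC 4.

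Myh11 (chr16:14194535-14291372, minus strand) encodes the smooth muscle myosin heavy chain and is the most specific marker of mature smooth muscle among the members. In GRP2/MP3 1 to 4 it was listed at 0.134, 0.0222, 0 and 0.861 RPKM. BNAP/GRP1 4 alone exceeded 1 RPKM, at 4.07, and the other 15 libraries ran from 0 to 0.515. In BNAP/GRP1 4, however, 75.5% of all genes had a higher RPKM than Myh11. Scaled by the relative depths, the values of Myh11 and of Cnn1 were whole multiples of 1 step per gene in all 20 libraries (within 0.15 of a whole number), so that a low RPKM stands for a countable number of steps: 27, 6, 0 and 144 steps of Myh11 in GRP2/MP3 1 to 4, and 93 in the shallow BNAP/GRP1 4. GRP2/MP3 4, not BNAP/GRP1 4, thus held the most steps of Myh11 of the 20 libraries. Without read totals, a step cannot be tied to 1 read.

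Myl9 (chr2:156775420-156781658, plus strand) encodes the regulatory light chain that the kinase phosphorylates, and it was the most abundant member in 12 of the 20 libraries, followed by Acta2 in 4. In GRP2/MP3 it was listed at 117.2, 22.1, 1.01 and 142.9 RPKM, and in NSC at 13.98, 80.2, 1.50 and 31.1. BNAP/GRP1 had 3.43, 15.1, 1.04 and 15.6, GRP3 4.77, 3.39, 2.76 and 7.33, and PFMP 2.68, 6.05, 2.55 and 8.16. GRP2/MP3 1 and 4 were the highest of all 20 libraries and GRP2/MP3 3 the lowest, so its SD was almost its mean, 70.8 ± 69.8 RPKM (n = 4). Outside batch 3, the GRP2/MP3 values of 22.1 to 142.9 did not overlap with those of GRP3, of PFMP or of BNAP/GRP1, but they did with those of NSC. On the log2 scale, the means were 4.90 ± 2.85 in GRP2/MP3, 4.14 ± 2.13 in NSC, 2.81 ± 1.48 in BNAP/GRP1, 2.43 ± 0.68 in PFMP and 2.41 ± 0.50 in GRP3, and neighbours differed by less than their SDs. In GRP2/MP3 1 and 4, 2.07% and 1.77% of all genes were higher than Myl9.

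Mylk (chr16:34745210-35002420, plus strand) encodes myosin light chain kinase, the switch of smooth muscle contraction, with a long form that endothelium and other cells also make. GRP2/MP3 held 4.17, 22.0, 0.0993 and 7.13 RPKM, and NSC 7.08, 0.847, 0.172 and 1.25. BNAP/GRP1 stood at 0.261, 2.43, 0.0649 and 7.66, GRP3 at 1.16, 1.20, 0.133 and 1.30, and PFMP at 2.27, 0.185, 0.0460 and 0.187. GRP2/MP3 2 was the highest of the 20 libraries, the 5 batch 3 libraries were the lowest, and all populations overlapped. Without batch 3, GRP2/MP3 (4.17 to 22.0) lay above GRP3 (1.16 to 1.30) and PFMP (0.185 to 2.27) with no overlap. The share of Mylk's 75-base transcript windows that other genes hold too was 3.55%.

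Des (chr1:75360329-75368579, plus strand) encodes desmin, the muscle intermediate filament, which brain pericytes also carry. Its values in GRP2/MP3 were 2.06, 0.744, 1.12 and 7.19 RPKM, and those in BNAP/GRP1 0.0954, 0, 1.79 and 12.7. The 12 libraries of NSC, GRP3 and PFMP ran from 0.0323 to 2.60. The mean was 2.78 ± 2.99 RPKM (SD, n = 4) in GRP2/MP3 and 3.65 ± 6.11 in BNAP/GRP1, where BNAP/GRP1 4 alone set it. Des shared 3.94% of its windows with Gm15179, which did not exceed 1.97 RPKM, and none of the 75-base windows of Acta2, Actg2, Tpm2, Cnn1, Myh11 and Myl9 were shared with another annotated gene.

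**Figure D1:**
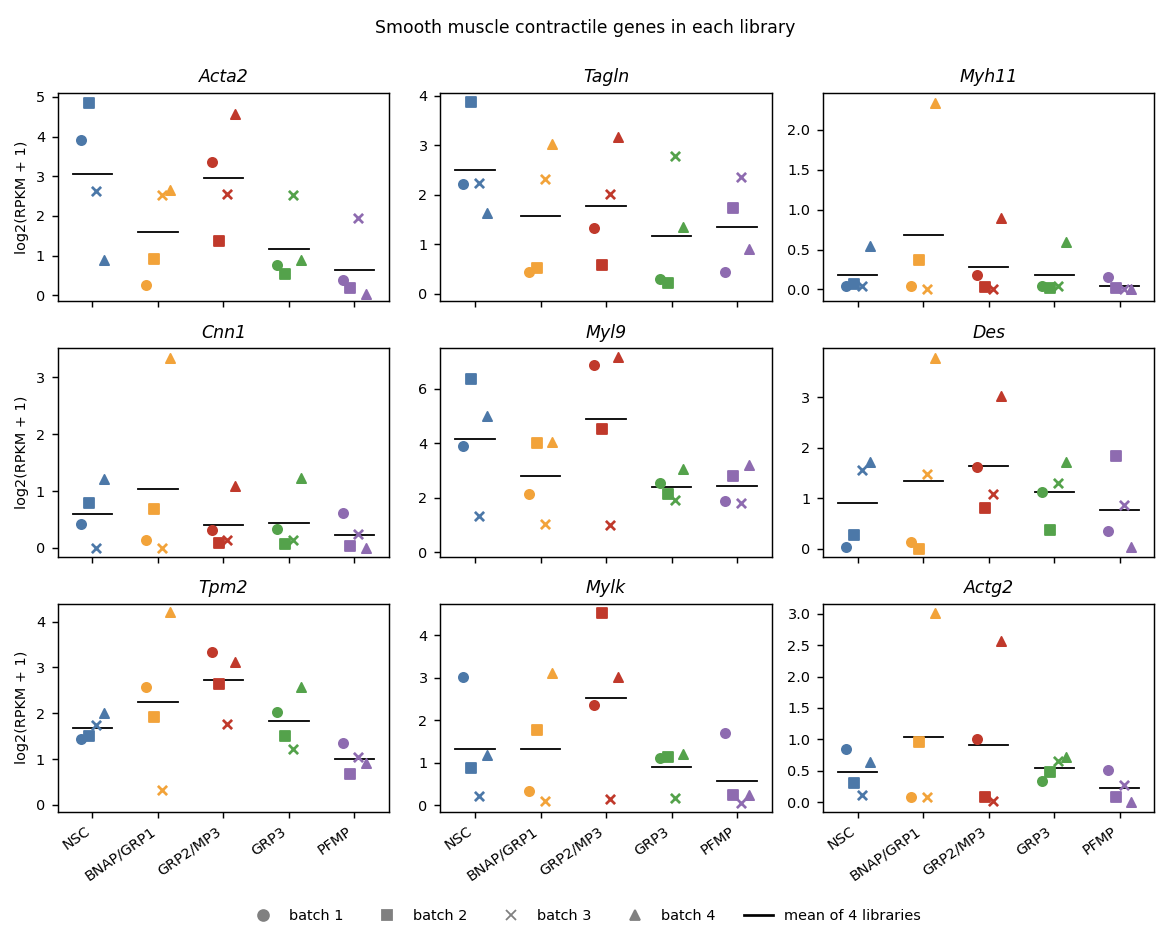
Level of each of the 9 contractile genes, as log2(RPKM + 1), in the 5 populations, with 1 point for each library, shaped by batch, and a black line at the mean of the 4 libraries. Myl9 reached 117.2 and 142.9 RPKM in GRP2/MP3 1 and 4, the crosses of batch 3 span 0.05 to 1.45 within a panel, most of all in Tpm2, and the triangle of BNAP/GRP1 4 is the highest point for Actg2, Tpm2, Cnn1, Myh11 and Des. The median over all genes in BNAP/GRP1 4 was 8.30 RPKM.

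GRP2/MP3 was compared with each other population to ask whether its contractile genes set it apart. At an adjusted p under 0.05 in limma, 0 of the 7 tested members were higher and 0 were lower against NSC, where 0% of all 27614 tested genes were called higher and 1.12% lower. Against BNAP/GRP1, GRP3 and PFMP, 0 of 7 were called in either direction, as were 0% of all genes in each direction. At an unadjusted p under 0.05 the members with higher levels in GRP2/MP3 were 0 of 7 against NSC (background 0.873%), 0 of 7 against BNAP/GRP1 (0.145%), 1 of 7, Myl9, against GRP3 (0.923%) and 4 of 7, Myl9, Acta2, Mylk and Tpm2, against PFMP (1.36%), and 0 of 7 were lower in each of the 4 comparisons (4.92%, 1.05%, 0.764% and 0.304% of all genes). With the batch as a term of the model, those higher at an unadjusted p under 0.05 were 1 of 7, Myl9, against BNAP/GRP1 (0.529% of all genes), 3 of 7, Myl9, Mylk and Acta2, against GRP3 (2.75%) and the same 4 of 7 against PFMP (3.9%). Over all 35 settings the members at an unadjusted p under 0.05 numbered 0 to 2 against NSC, 0 to 3 against BNAP/GRP1, 0 to 4 against GRP3 and 1 to 4 against PFMP. These comparisons share the GRP2/MP3 libraries.

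The sizes of the differences followed the same members. Against PFMP the log2 fold change on the log2(RPKM + 1) scale, which understates the change of low genes, was 2.47 for Myl9 (SE 1.14), 2.32 for Acta2 (SE 0.86), 1.95 for Mylk (SE 0.85) and 1.72 for Tpm2 (SE 0.66), each with an adjusted p of 1 in limma. Against GRP3 it was 2.49 for Myl9, 1.78 for Acta2 and 1.60 for Mylk, again with adjusted p of 1. Against BNAP/GRP1, Myl9 differed by 2.09, Acta2 by 1.37 and Mylk by 1.18, all with an adjusted p of 0.966. Against NSC, the log2 fold change was 1.19 for Mylk, 1.05 for Tpm2 and 0.75 for Myl9, and Tagln (-0.72) and Acta2 (-0.11) had negative differences, with adjusted p of 1. That of Mylk was 0.52 without GRP2/MP3 2, its highest library, and 1.98 without GRP2/MP3 3. Des ranged from 0.29 to 0.86 over the 4 comparisons and Cnn1 from -0.63 to 0.18.

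Over the tested members, the median log2 fold change of GRP2/MP3 was 0.73 against NSC, 0.47 against BNAP/GRP1, 0.88 against GRP3 and 1.72 against PFMP. Over all tested genes the medians were -0.08, -0.43, -0.15 and 0.09. Quantile normalization moved the median of all genes against BNAP/GRP1 from -0.43 to 0.0056, so the size of a difference from BNAP/GRP1 depends on the scaling. Leaving batch 3 out of every population and taking the batch as a term of the model, an alternative listed with the main design, raised the differences of Myl9 to 3.62 (SE 0.77, adjusted p in limma 0.0581) against GRP3, 3.56 (adjusted p 0.0723) against PFMP and 2.79 (adjusted p 0.634) against BNAP/GRP1. In that fit 0 of 7 members were called in each of the 4 comparisons, where 0.503%, 0.00724%, 0.167% and 0.105% of all genes were called higher, and 2.19%, 0%, 0.0797% and 0.0109% lower, against NSC, BNAP/GRP1, GRP3 and PFMP.

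**Figure D2:**
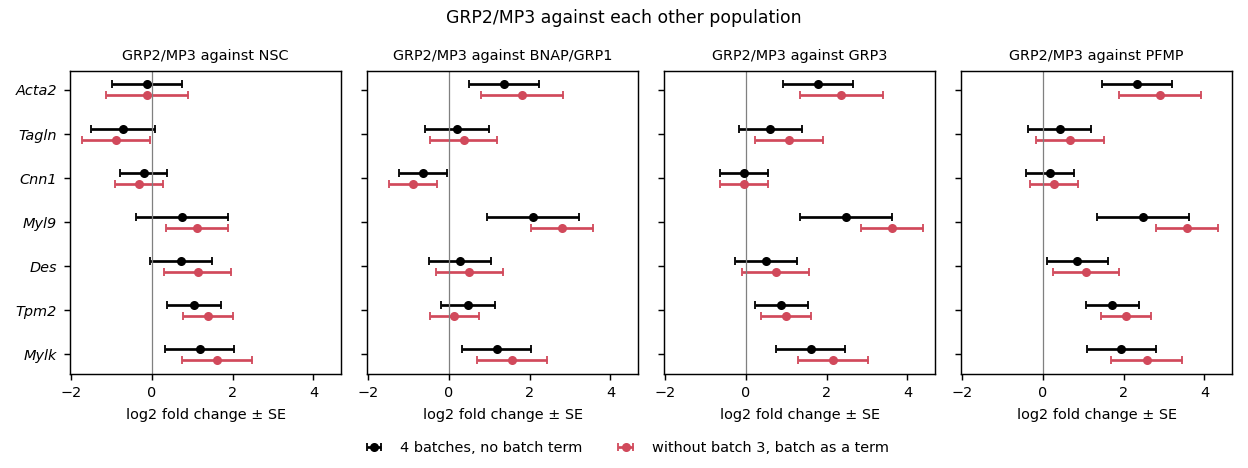
Log2 fold change, with its SE, of GRP2/MP3 against each of the other 4 populations for the 7 tested contractile genes, from the fit of all 20 libraries without a batch term (black) and from the fit without batch 3 and with batch as a term (red). Myl9 lies farthest from 0 against GRP3 and PFMP, at 2.49 and 2.47 in black and 3.62 and 3.56 in red, and Acta2, Tagln and Cnn1 lie below 0 against NSC.

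Within single batches, which pair the populations, the members did not keep their order. GRP2/MP3 was the highest of the 5 populations for 5 of 9 members in batch 1, 2 in batch 2, 1 in batch 3 and 3 in batch 4. The median of the 36 differences from the other populations (9 members, 4 populations) was 0.89 in batch 1, 0.20 in batch 2, -0.04 in batch 3 and 1.68 in batch 4 on the log2 scale. Differences above 1 numbered 16, 10, 1 and 23 of 36 in batches 1 to 4, and differences below -1 numbered 0, 5, 0 and 3. Acta2 shows the turn against NSC, with differences of -0.54, -3.48, -0.07 and 3.66 in batches 1 to 4, and Myl9 likewise with 2.98, -1.81, -0.31 and 2.17. Against GRP3, Myl9 was higher in GRP2/MP3 by 4.36, 2.39 and 4.11 in batches 1, 2 and 4 and lower in batch 3, where the difference was -0.90. Tpm2 was higher in GRP2/MP3 than in PFMP and than in NSC in 4 of 4 batches, by 1.99, 1.97, 0.72 and 2.21 against PFMP and by 1.90, 1.15, 0.04 and 1.11 against NSC.

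The other populations were compared with NSC, the population whose Acta2 and Tagln were highest on average. Against NSC, 0 of 7 members were called in BNAP/GRP1 (0% of all genes higher, 0.76% lower), 0 of 7 in GRP3 (0.0109% higher, 1.04% lower) and 0 of 7 in PFMP (0.00362% higher, 1.14% lower). Acta2 had a log2 fold change of -2.43 in PFMP (SE 0.86, adjusted p in limma 0.364), -1.89 in GRP3 (adjusted p 0.806) and -1.48 in BNAP/GRP1 (adjusted p 0.866). At an unadjusted p under 0.05 Acta2 was the single member in PFMP (5.08% of all genes were lower and 0.793% higher there) and in GRP3 (4.36% and 1.26%), and there was none in BNAP/GRP1 (4.03% lower, 1.87% higher). For the comparisons of BNAP/GRP1, GRP3 and PFMP the medians of the members were 0.0044, -0.42 and -0.76, beside 0.38, 0.05 and -0.20 over all genes.

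Markers of other cells varied among the NSC libraries, and they are given here beside Acta2 and Tagln. The 12 endothelial markers summed to 341.8, 149.3, 16.3 and 63.7 RPKM in NSC 1 to 4, and to between 7.25 and 30.3 in GRP3 and PFMP. The 10 ependymal markers summed to 4003, 17260.2, 1739.8 and 8510.0 RPKM in NSC 1 to 4, against 5.13 to 570.9 in the other 16 libraries. NSC 2 had the highest ependymal sum, Acta2 and Tagln of all libraries, and NSC 1 had the highest endothelial sum and NSC's highest Mylk. NSC 4, with the lowest Acta2 and Tagln of NSC, had higher sums of both lists than NSC 3. NSC 3 belongs to batch 3, where Acta2 stood at 2.86 to 5.13 RPKM in all 5 populations. The part of endothelial and ependymal cells in the levels of the contractile genes was not tested.

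Capillary pericyte genes gave the standard against which GRP2/MP3 was read. The list holds Rgs5, a regulator of G protein signalling, Kcnj8 and Abcc9, which form an ATP-sensitive potassium channel, Vtn (vitronectin), Higd1b, Atp13a5, Anpep, Cox4i2, Ndufa4l2, Ifitm1, P2ry14 and Pla1a. In GRP2/MP3 1 to 4 the 12 genes summed to 568.4, 493.3, 163.5 and 7696 RPKM, and the 9 contractile genes to 144.8, 52.3, 12.7 and 202.4 RPKM. The pericyte sum was thus 3.92, 9.43, 12.9 and 38.0 times the contractile sum. Single genes weighed heavily in these sums. Myl9 made up 80.9%, 42.2%, 8.01% and 70.6% of the contractile sum in GRP2/MP3 1 to 4, and Rgs5 was most of the pericyte sum in GRP2/MP3 4. Rgs5 alone stood at 120.4, 155.2, 0.251 and 6493 RPKM, and Higd1b at 286.8, 87.3, 0 and 463.2, so that in batches 1, 2 and 4 both exceeded every contractile gene. Pericyte genes at 1 RPKM or more numbered 10, 10, 5 and 12 of 12, and contractile genes 7, 4, 5 and 8 of 9.

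GRP2/MP3 3 was unlike the other 3 in this list too. There Higd1b, Atp13a5, Abcc9 and Cox4i2 were listed at 0, Rgs5 at 0.251, Vtn at 0.205 and Kcnj8 at 0.382 RPKM. The sum of 163.5 came mostly from Anpep, an aminopeptidase that myeloid cells and other cells also carry, which stood at 115 to 130 RPKM in all 5 libraries of batch 3 and at 7.38 or less in the other 15. Without batch 3 the pericyte sum of GRP2/MP3 was 3.92 to 38.0 times the contractile sum.

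As a mean over the genes of each list on the log2(RPKM + 1) scale, the contractile level minus the pericyte level was -1.40, -2.40, -0.73 and -3.02 in GRP2/MP3 1 to 4, a mean of -1.89 ± 1.02 (SD, n = 4). It was 0.23 ± 0.75 in NSC, -0.19 ± 0.32 in PFMP, -0.34 ± 0.30 in BNAP/GRP1 and -0.47 ± 0.21 in GRP3. Without NSC 1 or NSC 2 the mean of NSC was 0.0063 or 0.031, without NSC 3 or NSC 4 it was 0.52 or 0.36, and without PFMP 3 that of PFMP was -0.039. The values 0.89 and 0.82 in NSC 1 and 2 were the highest of the 20 libraries. Outside batch 3, the 3 lowest values were those of GRP2/MP3, and in batch 3 the 5 libraries lay between -0.73 and -0.34. The mean contractile level was 2.01 in GRP2/MP3 and 1.65 in NSC, and the mean pericyte level 3.90 and 1.42, so GRP2/MP3 had the higher mean in both lists, with the wider gap in the pericyte list.

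**Figure D3:**
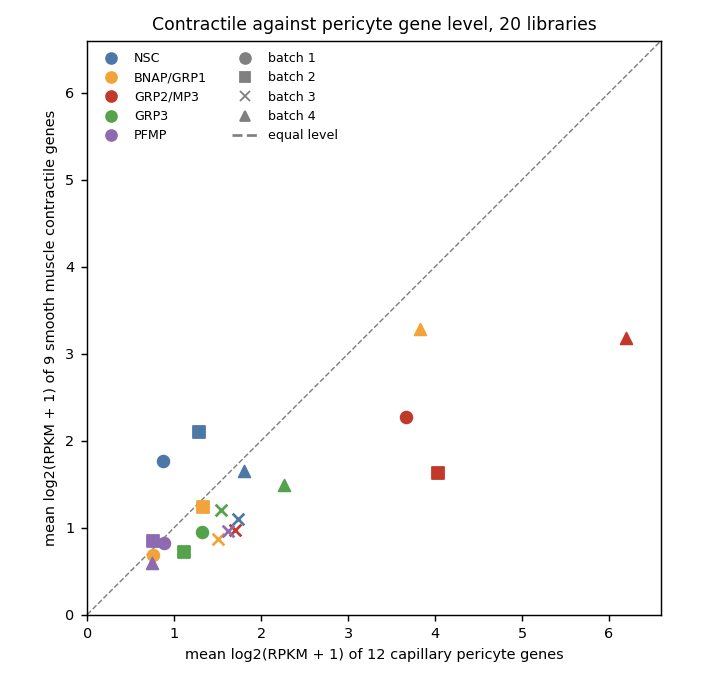
Mean log2(RPKM + 1) of the 9 contractile genes against that of the 12 capillary pericyte genes in each of the 20 libraries, coloured by population and shaped by batch, with a dashed line at equal level. GRP2/MP3 1, 2 and 4 lie farthest to the right of the line, by 1.40, 2.40 and 3.02, NSC 1 and 2 lie above it by 0.89 and 0.82, and the batch 3 libraries cluster just below it.

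In limma's fit of all libraries, 0 of 12 pericyte genes passed an adjusted p of 0.05 in each of the 4 GRP2/MP3 comparisons, where 0% of all genes were called higher. The pericyte medians were 2.30, 2.43, 2.49 and 3.11 against NSC, BNAP/GRP1, GRP3 and PFMP. At an unadjusted p under 0.05, 5, 6, 6 and 8 of 12 were higher (0.873%, 0.145%, 0.923% and 1.36% of all genes). With the batch as a term of the model, 6 of 12 were called higher against NSC (0.174% of all genes), namely Rgs5 (4.18, adjusted p in limma 0.00644), Vtn (4.25, 0.0106), Atp13a5 (3.56, 0.0115), Higd1b (4.49, 0.0272), Kcnj8 (3.17, 0.0285) and Abcc9 (2.63, 0.0312). The same term called 0 of 7 contractile genes. Without batch 3 and with that term, the pericyte genes called higher numbered 6, 1, 4 and 5 of 12 against NSC, BNAP/GRP1, GRP3 and PFMP (0.503%, 0.00724%, 0.167% and 0.105% of all genes). The difference between the lists in their change was not tested, since the lists were chosen with earlier results of these data known.

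Of the 14 genes that pericytes and vascular smooth muscle share, 0 were called in the 4 GRP2/MP3 comparisons, with medians of 1.40, 1.16, 1.20 and 1.43. The same fit of all libraries called 0% of all genes higher in each comparison and 1.12%, 0%, 0% and 0% lower. Pdgfrb, the receptor that recruits mural cells, stood at 16.1, 6.74, 0.104 and 30.8 RPKM in GRP2/MP3 1 to 4 and at 7.31 or less elsewhere, the highest of these in BNAP/GRP1 4. Notch3, which arterial smooth muscle and pericytes both use, was at 4.69, 3.87, 0.0104 and 4.02 RPKM. Cspg4, the gene of the sorted NG2 antigen, was at 5.91, 9.64, 0.0431 and 7.89 RPKM in GRP2/MP3 1 to 4, a range that overlapped with those of NSC (0.197 to 1.12) and of GRP3 (0.245 to 93.2). The overlap with NSC came from GRP2/MP3 3 alone. Outside batch 3, the GRP2/MP3 values of 5.91 to 9.64 lay above all NSC values. Without batch 3 and with the batch term, Pdgfrb was called higher in GRP2/MP3 against NSC (3.06, adjusted p in limma 0.0225) and against PFMP (3.72, adjusted p 0.0494), and Gucy1a3, a subunit of the nitric oxide receptor, against NSC (2.34, adjusted p 0.0327).

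**Figure D4:**
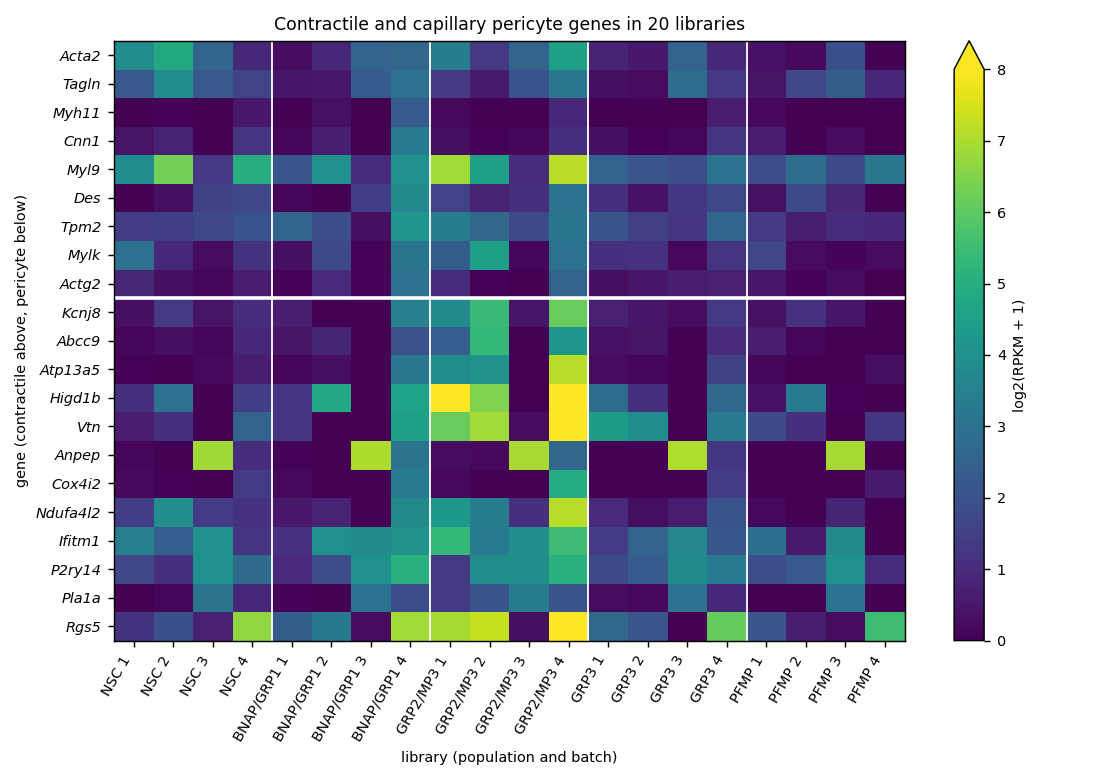
Log2(RPKM + 1) of the 9 contractile genes (above the white line) and the 12 capillary pericyte genes (below it) in each of the 20 libraries, with colours capped at 8. In GRP2/MP3 1, 2 and 4 the rows of Rgs5, Higd1b and Vtn are bright, from 68.8 RPKM upward, Myl9 is the brightest contractile row there, and Myh11 and Cnn1 are dark in nearly all libraries.

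Other genes that mark smooth muscle were compared in the same way. Of 22 such genes outside the members, 16 were tested, with medians of -0.28, -0.05, 0.34 and 0.31 against NSC, BNAP/GRP1, GRP3 and PFMP. The fit of all libraries called 0 of 16, and 0% of all genes higher in each comparison and 1.12%, 0%, 0% and 0% lower. Such counts therefore cannot tell the list from other genes. Cald1, caldesmon, which binds actin and myosin, was at 26.2, 33.3, 6.12 and 121.3 RPKM in GRP2/MP3 and at 2.42 to 47.5 in the other populations. Lmod1, the leiomodin of smooth muscle, was at 0.732 RPKM or less in GRP2/MP3 and passed 1 RPKM in NSC 4, BNAP/GRP1 4 and GRP3 4, so it was not tested. Smtn, smoothelin, stood at 2.09, 0.825, 1.05 and 8.05 RPKM in GRP2/MP3 and at 0.339 to 9.87 elsewhere.

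Some of these genes were highest in NSC. Casq2, the calcium store protein calsequestrin of cardiac muscle, which smooth muscle also holds, was at 11.8, 23.8, 4.37 and 3.35 RPKM in NSC 1 to 4 and at 2.55 or less in GRP2/MP3, GRP3 and PFMP. It fell in GRP3 against NSC (-2.96, adjusted p in limma 0.0261) and in PFMP against NSC (-3.16, adjusted p 0.0135), and in GRP2/MP3 the change was -2.14 (adjusted p 0.193). Pcp4l1 was at 38.4, 76.7, 4.92 and 104.6 RPKM in NSC, and Sncg, γ-synuclein, at 4.43, 65.0, 3.27 and 1.74. With the batch term, both were called lower in GRP2/MP3 against NSC, Pcp4l1 by -2.63 (adjusted p 0.0350) and Sncg by -2.76 (adjusted p 0.0413), where 2.91% of all genes were called lower. These genes did not share an order within NSC: Casq2 and Sncg were highest in NSC 2 and lowest in NSC 4, where Pcp4l1 was highest. The ependymal sum given above was highest in NSC 2 and the endothelial sum in NSC 1. The part of such cells in these values was not tested.

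The regulators of the contractile genes were low or broadly spread. Of 14, 0 were called in the GRP2/MP3 comparisons, with medians of 0.05, 0.08, 0.05 and 0.25. Among all genes 0% were called higher in each comparison there and 1.12%, 0%, 0% and 0% lower. Myocd, the myocardin that with serum response factor turns on the smooth muscle programme, was at 0.435, 0.279, 0 and 0.957 RPKM in GRP2/MP3 and reached 9.76 in BNAP/GRP1 4 and 2.08 or less in the other 19 libraries. Srf, serum response factor itself, was at 7.27, 27.5, 6.04 and 2.68 RPKM in GRP2/MP3 and at 1.56 to 36.8 elsewhere. Klf4, which holds back contractile genes in smooth muscle, was at 19.5, 22.3, 4.51 and 11.8 RPKM in GRP2/MP3 and at 25.9, 43.8, 4.77 and 44.4 in NSC. With the batch term Klf4 was called lower in PFMP against NSC, by -2.04 (adjusted p in limma 0.0346), as were 2.61% of all genes.

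Of the 25 genes of the pathway that controls contraction, the potassium channels and the endothelin receptors among them, 0 were called in the 4 GRP2/MP3 comparisons, with medians of -0.02, 0.27, 0.0074 and 0.06. Beside them, 0% of all genes were called higher in each comparison and 1.12%, 0%, 0% and 0% lower. Ppp1r14a, the smooth muscle inhibitor of myosin phosphatase (CPI-17), stood at 38.0, 12.3, 0.431 and 44.8 RPKM in GRP2/MP3 1 to 4. Apart from 28.0 RPKM in PFMP 2 and 7.96 in BNAP/GRP1 4, it was at 3.57 or less in the other 14 libraries, and its log2 fold change against NSC was 3.23 (SE 1.10, adjusted p in limma 0.301). Ednra, the endothelin receptor of mural cells, was at 6.44, 19.3, 0.446 and 14.7 RPKM in GRP2/MP3 and differed from PFMP by 2.19 (adjusted p 1).

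Actb and Myl6, cytoplasmic relatives of the contractile proteins that most cells make, stood above every member in GRP2/MP3. Actb, β-actin, was at 7448, 2980.0, 3838 and 21527 RPKM in GRP2/MP3, where Acta2 was at 1.58 to 22.6, and Myl6, a light chain of smooth and non-muscle myosin, at 4550.4, 1255, 1114 and 764.6. Of 23 relatives from non-muscle and striated muscle cells, 21 were tested and 0 were called in the 7 comparisons. In these, 0% to 0.0109% of all genes were called higher and 0% to 1.14% lower. With the batch term, Cnn3, the calponin of non-muscle cells, and Myh14, a non-muscle myosin heavy chain, were called lower in GRP2/MP3 against NSC, by -2.50 (adjusted p in limma 0.0313) and -2.01 (adjusted p 0.0402). Actb and Acta2 encode near-identical proteins, but they shared none of their 75-base transcript windows.

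Markers of other cells that the GRP2/MP3 gate could hold varied among its libraries. The 10 microglial markers summed to 6709, 4413, 2721 and 712.9 RPKM in GRP2/MP3 1 to 4, and 0 of 10 were called there against NSC, with a median of 3.91. That comparison called 0% of all genes higher and 1.12% lower. The 12 endothelial markers summed to 149.4, 169.8, 9.78 and 122.7 RPKM and had a median of 0.02 against NSC. Markers of perivascular fibroblasts summed to 46.7, 89.4, 48.2 and 147.0, and 11 tested members had a median of 0.17 against NSC. The 7 erythroid markers summed to 26514.9, 4569.6, 252653 and 2754.8 RPKM in GRP2/MP3 1 to 4. In the other 4 libraries of batch 3 they summed to 228440 or more, and in the remaining 12 libraries to between 12.2 and 3719.6. Without batch 3 and with the batch term, 4 of 6 tested erythroid markers were called higher in GRP2/MP3 against NSC (median 4.37) and 2 of 6 against GRP3 (median 5.09), where 0.503% and 0.167% of all genes were. Of 19 striated muscle markers, 13 were tested, and Tnni3, the cardiac troponin I, was called, lower in PFMP against NSC (-4.40, adjusted p in limma 0.0321). Of all genes, 1.14% were called lower in PFMP against NSC without the batch term and 2.61% with it. The endothelial sum and the contractile sum were both lowest of the GRP2/MP3 libraries in GRP2/MP3 3, and the part of these cells in the contractile levels was not tested.

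Across the 20 libraries, the members fell into groups by their Pearson correlation on the log2(RPKM + 1) scale, given as a description, since libraries of a batch share their handling and libraries of a population their gate. Acta2 and Tagln had an r of 0.809, and 0.864 after the mean of each batch was taken out. Myl9 joined Acta2 more closely once batch means were out, with 0.817 against 0.487 before. Myh11 and Cnn1 had an r of 0.964, Myh11 and Actg2 0.885, and Myh11 and Des 0.753, pairs whose highest library was BNAP/GRP1 4 throughout. Tagln had an r near 0 with Tpm2 (0.033) and with Mylk (-0.050).

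The genes most like the members, by r over 20 libraries with the mean of the 7 tested members' standardised levels, were Vsig2 (0.955), Gprc5c (0.927), Rem1 (0.924), Prss45 (0.919), Tie1 (0.918), Gm13861 (0.915), Rasip1 (0.901), Gja4 (0.892), Igsf5 (0.891) and Ndufa4l2 (0.891). The members themselves had r between 0.595 for Tagln and 0.754 for Cnn1 with this mean, which they help to form. Tie1, a receptor of endothelium, Rasip1, an endothelial regulator of vessel lumens, and Gja4, a connexin of arterial endothelium and mural cells, are vascular genes, and Ndufa4l2 is in the pericyte list. Vsig2, Gprc5c, Rem1, Prss45, Gm13861 and Igsf5 are in none of the lists used here. BNAP/GRP1 4, with a median over all genes of 8.30 RPKM, was the highest library for Tpm2, Cnn1 and Des. Its weight in these correlations was not tested. With batch means taken out, the first 2 were Vsig2 (0.970) and Tie1 (0.928), and Eng (0.902), an endothelial co-receptor, and Robo4, of endothelium too, entered the first 10.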

How the data were processed

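PolyA RNA of sorted cells was amplified (MessageAmp II) and sequenced on a NextSeq500 for 75 cycles. Per the labels and methods, the authors used FastQC 0.11.9, cutadapt 3.4, STAR 2.6.1, Salmon 1.9.0, GRCm38 and DESeq2 1.26.0, and deposited RPKM values. The lengths and read totals behind the RPKM, and whether strand was used, are not given in the sources used here. The table's 26 further columns hold no values. Populations and batches were taken from the sample labels, and the table's columns carry the same names.

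RPKM values were taken as log2(RPKM + 1), and the 27614 genes that reached 1 RPKM in 4 or more of the 20 libraries were tested with limma 3.58.1 in R 4.3.3 (lmFit with 1 mean for each population, eBayes with a trend, 2-sided), adjusted by Benjamini-Hochberg over all tested genes with 0.05 as the threshold. The labels do not tie batches to litters, while the study describes 4 independent experiments. The p-values measure the spread between these libraries, which may be technical in part. The steps were tested on simulated data. Batch numbers pair the samples: once population means were removed, libraries of a batch had a median correlation of 0.337, 0.262, 0.769 or 0.581 (batches 1 to 4, each pair at least 0.034), and libraries of different batches one of -0.204. As the study names no batch term, the batch entered as an alternative, the replicate block. Genes named are the members, genes of lists of related genes and cell type markers, and the 10 genes most like the members. The members and lists were chosen with earlier results of these data known. Also tried were a pseudocount of 0.1, tests of all genes or of those with a mean RPKM of 5 or more, quantile normalization, median-of-ratios scaling, a prior without trend, only the compared populations in the fit, and libraries or batches left out. Relative depth came from whole-number ratios among low values. Promoter windows were from RefSeq and gene positions from GENCODE vM21 (both GRCm38). Figures used Python 3.11.15 and matplotlib 3.10.9.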

Additional observations from a re-analysis of the deposited data

Results flagged for a closer look

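In 17 of 50 groups of 4 libraries (9 genes and the contractile minus pericyte level, in 5 populations), 1 library lay far from the other 3. Its gap was above Dixon's critical share of the group's range, which independent, normally distributed values pass in about 1 in 20 groups. The genes entered as RPKM without a log, and the groups share libraries, so the 17 cannot be set against that rate.

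BNAP/GRP1 4 was the high library for Myh11 (4.07 RPKM), Cnn1 (9.10), Des (12.7) and Actg2 (7.06). Its median over all genes was 8.30 RPKM. Other batch 4 libraries were high for Myh11 in NSC 4 (0.461), GRP2/MP3 4 (0.861) and GRP3 4 (0.515), and for Cnn1 in GRP2/MP3 4 (1.12) and GRP3 4 (1.34). The contractile minus pericyte level of GRP3 4, -0.775, was the low one of its population. Batch 3 libraries stood apart in GRP3 3 for Acta2 (4.72, above the 0.448 to 0.864 of the others) and for Mylk (0.133, below the 1.16 to 1.30 of the others), and in PFMP 3 for Acta2 (2.86). NSC 2 was high for Tagln (13.6) and NSC 1 for Mylk (7.08), and PFMP 1 was high for Myh11 (0.118) and Mylk (2.27).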

How the results depend on the processing

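No member was called in any of the 7 comparisons under any of 35 settings each, the replicate block included, which changed no call of a member. The smallest adjusted p over the settings was 0.157 against NSC, 0.634 against BNAP/GRP1, 0.0581 against GRP3 and 0.0723 against PFMP for GRP2/MP3, and 0.312, 0.123 and 0.109 for BNAP/GRP1, GRP3 and PFMP against NSC. Leaving out batch 3 of every population and BNAP/GRP1 4 together, with the replicate block, was chosen after seeing the data. The replicate block leaves fold changes as they are. Quantile normalization turned the direction of Acta2 against NSC (0.38) and of Cnn1 against BNAP/GRP1 (0.024), GRP3 (0.037) and PFMP (-0.082), and median-of-ratios scaling that of Cnn1 against GRP3 (0.0023), all for GRP2/MP3, and the cause was not tested. The contractile minus pericyte level moved in GRP3 to 0.12 and in PFMP to 0.14 with medians over genes, and in GRP3 to -0.26 with tested genes alone. In PFMP it was 0.049 with a pseudocount of 0.1 and -0.00030 with tested genes alone. Leaving out 1 library gave 0.0063 to 0.52 in NSC and -0.29 to -0.039 in PFMP.

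Leaving out 1 library gave ranges that cross 0 for GRP2/MP3 against NSC in Acta2 (-0.83 to 0.48), Cnn1 (-0.43 to 0.0031) and Myl9 (-0.19 to 2.05), against BNAP/GRP1 in Tagln (-0.27 to 0.68), Cnn1 (-0.98 to 0.13), Des (-0.18 to 1.10) and Tpm2 (-0.18 to 1.12), against GRP3 in Cnn1 (-0.27 to 0.22), and against PFMP in Tagln (-0.047 to 0.82) and Cnn1 (-0.048 to 0.31). Leaving batch 1 out of every population turned Acta2 against NSC (0.035) and Tagln (-0.032) and Des (-0.11) against BNAP/GRP1, leaving out batch 2 turned Acta2 (1.02) and Tagln (0.14) against NSC, and leaving out batch 4 turned Tagln (-0.20) and Cnn1 (-0.12) against PFMP. Myl9, Acta2 and Mylk kept their direction against BNAP/GRP1, GRP3 and PFMP in every alternative, and so did Tpm2 against NSC, GRP3 and PFMP. Of the 12 comparisons of the other 4 tested members in BNAP/GRP1, GRP3 and PFMP against NSC, 10 changed sign in at least 1 alternative. Low depth limits low values, such as those of Myh11, Cnn1 and Actg2, which stood at 1 RPKM or more in 1, 4 and 3 of the 20 libraries.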
